A study of Mus musculus with 6 samples.

Results

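Hnf4a, Foxa1, Foxa2, Foxa3, Onecut1, Onecut2 and Prox1 encode transcription factors that set and hold hepatocyte identity. These 7 genes were chosen by name from the 19764 genes of the deposited table, with earlier results of these data known. Each had 1 row. Their transcript levels were compared between primary mouse hepatocytes given TNF and hepatocytes given vehicle.

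HNF4A is a nuclear receptor that binds as a homodimer to the promoters of many liver genes, including those for apolipoproteins, clotting factors and bile acid enzymes. The FOXA proteins are forkhead factors that can bind their sites in closed chromatin and open the liver enhancers for other factors. ONECUT1 (also called HNF6) and ONECUT2 share a cut domain and a homeodomain and act in liver and bile duct development. PROX1 is a homeodomain protein needed for hepatocyte migration in the embryo and for lymphatic endothelium. In hepatocytes it binds HNF4A and the nuclear receptor NR5A2 and acts as a corepressor. Several of these factors bind the promoters of one another, so that they form a cross-regulated network.

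Cells came from mice of strain Bl6/N, and polyA RNA was sequenced as paired ends. The TNF group (3 libraries) received 1 ng/ml TNF, a cytokine of inflammation, for 8 h. The Control group (3 libraries) received vehicle for the same time. Before that, both groups spent 16 h in starvation medium (5 mM glucose), and both received 1 µM corticosterone, a glucocorticoid receptor ligand, and 10 µM WY-14643, a ligand of PPARα, together with TNF or vehicle. No library without corticosterone and WY-14643 was analysed here. The sources used here do not give the age and sex of the mice or say if each replicate was its own animal or culture. The p-values therefore measure the spread between these libraries. In the fit with the replicate block, described below, they measure the spread of the differences within same-numbered pairs. Either spread may be technical.

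Libraries held between 17612060 and 25114289 reads over genes. Levels are CPM, that is counts scaled to library size. Changes are TNF minus Control in log2(CPM + 1), so those of weakly transcribed genes come out too small, and errors are SD of 3 libraries unless named otherwise. The NF-κB feedback gene Tnfaip3 was at 43.6, 73.5 and 47.2 CPM in TNF 1, 2 and 3, against 11.9, 20.9 and 14.2 CPM in Control 1, 2 and 3 (log2 1.74, limma adjusted p 0.0438), without overlap. Nfkbia, which encodes the NF-κB inhibitor IκBα, was at 25.3, 35.5 and 35.2 CPM in TNF 1, 2 and 3, against 14.3, 18.2 and 16.3 CPM in Control 1, 2 and 3, also without overlap (log2 0.93, limma adjusted p 0.0731 without the block and 6.31e-07 with it). Among 8 hepatocyte markers Alb averaged 33298 CPM in TNF and 34932 CPM in Control. Summed hepatocyte markers were lowest in replicate 1 of both groups, at 40104 CPM in TNF 1 and 41243 CPM in Control 1, against 56108 to 57223 CPM in the other TNF libraries and 61252 to 62729 CPM in the other Control libraries. Of these 8 markers 5 were lower and 0 higher in the fit with the replicate block described below. That fit called 11.2% of all tested genes lower and 9.4% higher. The part of these markers in the results was not tested. Of the macrophage markers (8 in the table) and the lymphocyte and neutrophil markers (7 in the table), none reached the level needed for testing.

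The 250 bases before annotated transcription starts are shown for the promoters of Hnf4a, the member with the highest level, and of Foxa2 and Foxa3, the FOXA genes that were lower with TNF. They were taken from RefSeq on build GRCm38.p6, which has the coordinates of mm10, and read 5′ to 3′ on the gene's strand, and the last base precedes the start. Promoter windows of 6 of the 7 genes were searched, and Onecut2 was left out of this search. Hnf4a has 2 annotated starts, P1, the start used in adult liver, and P2, which lies upstream and is known from pancreas and fetal liver. The counted span of Hnf4a (chromosome 2, plus strand, bases 163547188 to 163572907) begins shortly after the P1 start, so reads from a first exon at P2 were not counted and the 2 starts were not measured apart. Capitals mark matches, on either strand, to the ONECUT motif ATTGATT, the FOXA motifs TGTTTAC and TGTTTGT or the NF-κB consensus.
Hnf4a P2, chr2:163506607-163506856, plus strand, ONECUT match: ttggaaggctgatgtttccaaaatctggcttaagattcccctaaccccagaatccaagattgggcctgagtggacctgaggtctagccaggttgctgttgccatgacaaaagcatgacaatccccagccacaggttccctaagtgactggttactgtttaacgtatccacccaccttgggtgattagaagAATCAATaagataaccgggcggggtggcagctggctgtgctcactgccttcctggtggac
Hnf4a P1, chr2:163546905-163547154, plus strand, FOXA match: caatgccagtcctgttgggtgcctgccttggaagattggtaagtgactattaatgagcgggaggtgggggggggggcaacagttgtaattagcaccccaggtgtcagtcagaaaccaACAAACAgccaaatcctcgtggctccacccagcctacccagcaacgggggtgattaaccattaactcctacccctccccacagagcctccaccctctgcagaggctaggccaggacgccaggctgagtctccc
Foxa2, chr2:148046970-148047219, minus strand, ONECUT match, then FOXA match: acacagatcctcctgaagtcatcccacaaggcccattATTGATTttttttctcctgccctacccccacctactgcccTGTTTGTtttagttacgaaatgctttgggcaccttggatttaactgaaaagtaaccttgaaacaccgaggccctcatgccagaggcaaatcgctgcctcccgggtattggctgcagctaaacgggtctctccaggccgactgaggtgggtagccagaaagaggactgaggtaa
Foxa3, chr7:19023540-19023789, minus strand, NF-κB matches (2): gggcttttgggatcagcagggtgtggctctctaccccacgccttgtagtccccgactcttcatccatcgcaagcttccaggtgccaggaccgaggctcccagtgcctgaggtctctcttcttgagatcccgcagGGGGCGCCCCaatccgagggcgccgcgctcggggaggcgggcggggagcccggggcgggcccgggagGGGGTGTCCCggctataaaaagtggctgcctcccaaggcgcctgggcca

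The Hnf4a P1 window held a FOXA motif 133 to 127 bases before the start. The P2 window held an ONECUT motif 60 to 54 bases before its start. In the Foxa2 window shown an ONECUT motif lay 213 to 207 bases and a FOXA motif 173 to 167 bases before the start, and the NF-κB matches of Foxa3 lay 116 to 107 and 49 to 40 bases before its start. Foxa2 has 2 other annotated starts, whose windows held none of the motifs searched. Among 32851 windows of the same length over all RefSeq genes, 2.61% held the ONECUT motif, 8.74% a FOXA motif and 7.25% the NF-κB consensus. The window of Foxa1, a gene whose level differed little between groups, also held a FOXA motif, 141 to 135 bases before its start. The HNF4 motif CAAAGTCCA (0.384% of windows) and the C/EBP motif TTGCNNAA (9.56%) matched no window of the 6 genes searched. No motif searched matched those of Onecut1 and Prox1, and Onecut2 was not searched. Each motif was searched on both strands. The matched stretches of different motifs did not overlap in the 4 windows shown, and the motif letters were set after the sequences had been seen. A match is a description of these letters and does not show binding.

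Hnf4a, Foxa2, Foxa3, Onecut1 and Prox1 were lower in TNF than in Control within each of the 3 pairs of same-numbered libraries, while Foxa1 and Onecut2 showed no common direction. Of all tested genes 27.7% were lower in each pair. All 7 genes had enough reads to be tested. With group as the only term, limma called none of the 7 at an adjusted p under 0.05, against 0.0732% of all 12293 tested genes called lower and 0.358% called higher (0.431% in either direction). Before adjustment, 3 of the 7 (Hnf4a, Onecut1 and Prox1) were lower with p below 0.05, as were 4.31% of all tested genes. Another tool, limma-voom on the recovered reads, also with group as the only term, called 0 of the 7. Over all tested genes it called 7 lower and 39 higher. With the replicate number as a block, limma called 5 of the 7 lower and 0 higher. In that fit 11.2% of all tested genes were called lower and 9.4% higher (20.6% in either direction). By limma-voom with the block 5 of the 7 were lower, with 1364 of all tested genes called lower and 1156 higher. The planned main test had group as its only term, and the block was an alternative. Its pairing rests on a correlation in these same libraries, given with the processing. Below, "fell" and "rose" refer to the blocked limma fit and its threshold (adjusted p 0.05). For the 7 genes and the named list genes the adjusted p without the block is also given. The median change over the 7 genes was -0.26, and over all tested genes it was -0.01.

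**Figure D1:**
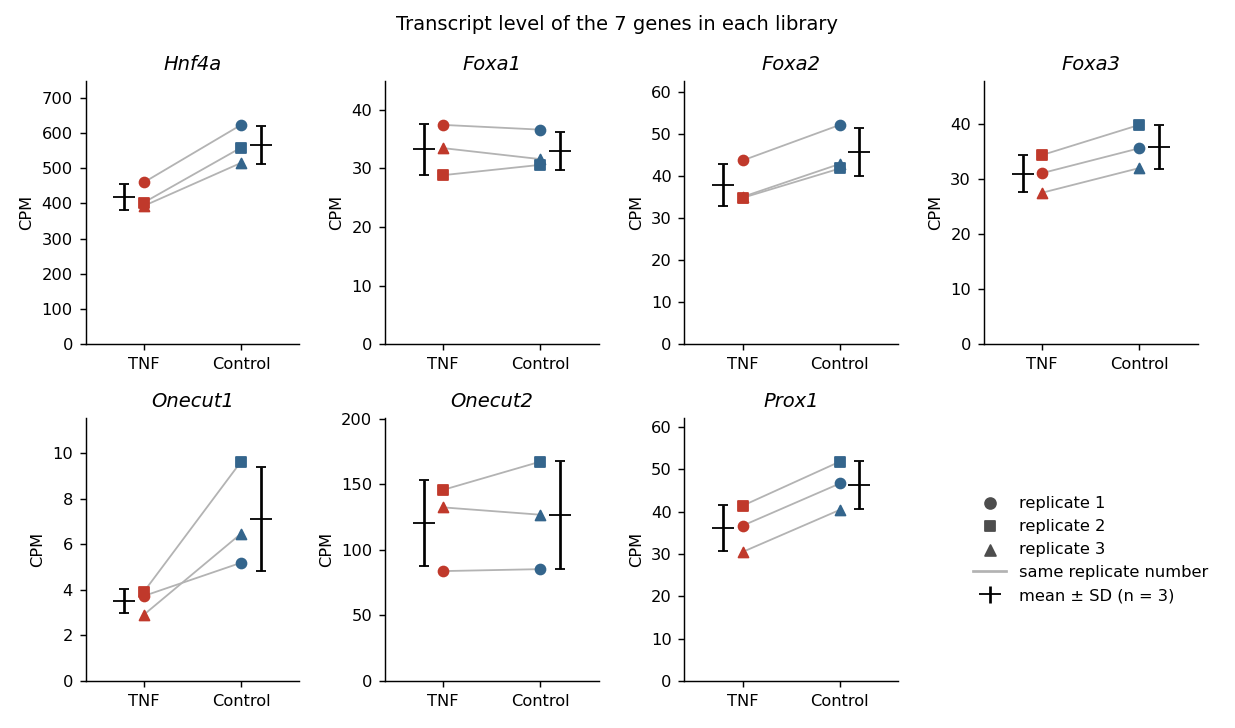
Level in CPM (vertical axes, each from 0) of the 7 genes in the 3 TNF libraries (left, red) and the 3 Control libraries (right, blue). Marker shape gives the replicate number, grey lines join libraries of the same number, and black bars are means ± SD. Lines for Hnf4a, Foxa2, Foxa3 and Prox1 run nearly parallel, with TNF below Control, and for Onecut1 the steps differ in size between pairs.

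Hnf4a was at 459, 402 and 393 CPM in TNF 1, 2 and 3, against 623, 558 and 515 CPM in Control 1, 2 and 3. The highest TNF library lay below the lowest Control library, and replicate 1 was the highest in both groups. The mean was 418 ± 36.1 CPM in TNF and 565 ± 54.2 CPM in Control (SD, n = 3 each), which is 26.0% lower. In limma the log2 change was -0.43 (SE 0.10 without the block, adjusted p 0.177), and Hnf4a fell with the block (SE 0.03, adjusted p 3.06e-07). The changes in the pairs were -0.44, -0.47 and -0.39 (SD 0.04). The step between groups was larger than the spread of the pairs' changes, although replicate 1 was well above replicate 3 within each group. Of all tested genes 2.23% had a lower log2 change than Hnf4a. An exact two-sided permutation test over libraries gave p = 0.1, the smallest that 3 against 3 allows.

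Hnf4a stood apart from the other 6 genes in abundance. Its RNA was counted with 7497 to 9600 reads per TNF library and 10579 to 13492 reads per Control library, and only 233 of the tested genes had a higher mean CPM. The receptor is also the member with the narrowest interval of change. With the block the 95% interval ran from -0.50 to -0.37, and without it from -0.67 to -0.20.

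The FOXA genes lie on the minus strands of 3 chromosomes in mm10, with Foxa1 on chromosome 12 (bases 57540632 to 57546121), Foxa2 on chromosome 2 (148042877 to 148046969) and Foxa3 on chromosome 7 (19013283 to 19023539). Foxa2 and Foxa3 fell with the block, and Foxa1 did not pass the test. Foxa2, which in liver acts on bile acid and lipid genes, was at 43.6, 34.8 and 35.0 CPM in TNF 1, 2 and 3, against 52.1, 41.7 and 42.8 CPM in Control 1, 2 and 3. The groups overlapped, because TNF 1 lay above Control 2 and Control 3, and replicate 1 was the highest library of each group. Within pairs the changes were -0.25, -0.26 and -0.28 (SD 0.02). In limma Foxa2 fell by 0.26 on the log2 scale with the block (adjusted p 0.00156), and the adjusted p without the block was 0.639. Means were 37.8 ± 5.06 CPM in TNF and 45.6 ± 5.69 CPM in Control, 17.0% lower (SD, n = 3 each).

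Foxa3, known in mouse for a part in glucose homeostasis during fasting, was at 31.0, 34.3 and 27.5 CPM in TNF 1, 2 and 3, against 35.5, 39.8 and 31.9 CPM in Control 1, 2 and 3. The groups overlapped, with replicate 2 the highest and replicate 3 the lowest library of both. The changes in the pairs were -0.19, -0.21 and -0.21 (SD 0.01). In limma the adjusted p was 0.784 without the block and 0.0169 with it. The blocked call was lost without replicate 2 (adjusted p 0.0802) and without replicate 3 (adjusted p 0.0535), at log2 changes of -0.20 in both.

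Foxa1, the FOXA gene that with Foxa2 is required for liver specification in mouse, was at 37.4, 28.8 and 33.4 CPM in TNF 1, 2 and 3, against 36.6, 30.6 and 31.5 CPM in Control 1, 2 and 3. The groups overlapped almost fully, and 1 of the 3 pairs was lower with TNF. The log2 change in limma was 0.01, with an adjusted p of 0.999 without the block and 0.935 with it. With the block the 95% interval ran from -0.12 to 0.13, so a fall of the size seen for Foxa2 lay outside it. The log2 ratio of Foxa2 to Foxa1 was 0.22, 0.26 and 0.06 in TNF 1, 2 and 3, against 0.50, 0.44 and 0.43 in Control 1, 2 and 3. All TNF values lay below all Control values. This ratio was singled out after the values had been seen and was not tested.

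**Figure D2:**
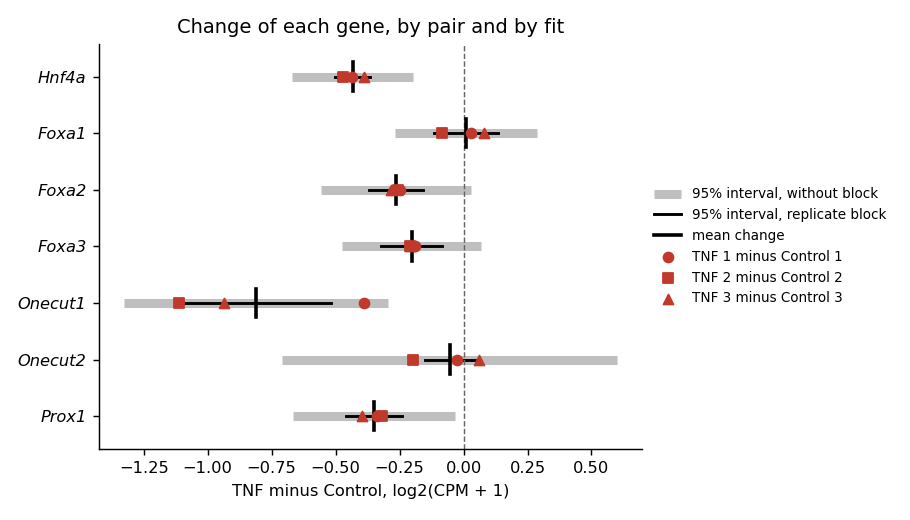
Change of each gene as TNF minus Control on the log2(CPM + 1) scale (horizontal axis). Red markers are the 3 pairs of same-numbered libraries, vertical black strokes the means, thin black lines the 95% intervals of the limma fit with the replicate block and wide grey bars those without it. For Hnf4a, Foxa2, Foxa3 and Prox1 the 3 pairs lie close together, while those of Onecut1 spread from -1.11 to -0.39.

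Onecut1 had the largest change of the 7 genes and the fewest reads. It was at 3.73, 3.92 and 2.91 CPM in TNF 1, 2 and 3 (78, 73 and 59 reads), against 5.19, 9.64 and 6.47 CPM in Control 1, 2 and 3 (94, 233 and 133 reads). The groups did not overlap, as was the case for 2 of the 7 genes (Onecut1 and Hnf4a), and 6.66% of all tested genes had every TNF library below every Control library (6.59% had every one above). Control 2 stood above the other Control libraries. Exact 95% Poisson intervals, which cover counting error only, reached from 2.95 to 4.66 CPM in TNF 1 and from 4.20 to 6.35 CPM in Control 1, so these 2 libraries of replicate 1 overlapped within counting error. The mean of 3.52 ± 0.54 CPM in TNF was 50.4% lower than the 7.10 ± 2.29 CPM in Control (SD, n = 3 each). In limma the log2 change was -0.81 (SE 0.22, adjusted p 0.262) without the block, and Onecut1 fell with the block (SE 0.14, adjusted p 0.000642). The pairs changed by -0.39, -1.11 and -0.94 (SD 0.38). A pseudocount of 5 in place of 1 gave -0.49, and limma-voom on the reads gave -1.02. A lincRNA gene, Gm20649, spans the whole counted stretch of Onecut1 on the same strand (27727 bases, chromosome 9, 74861921 to 74889647) and has no row in the table. Its reads cannot be told apart from those of Onecut1.

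Onecut2 was at 83.8, 146 and 132 CPM in TNF 1, 2 and 3, against 85.3, 167 and 127 CPM in Control 1, 2 and 3. Replicate 1 was the lowest library in both groups, and the groups overlapped. The highest Control library was 1.96 times the lowest, and the highest TNF library 1.74 times the lowest, so that libraries of 1 group differed far more than the group means of 121 ± 32.6 CPM in TNF and 127 ± 41.1 CPM in Control (SD, n = 3 each). The log2 change was -0.05, with pairs at -0.03, -0.20 and 0.06, and limma gave an adjusted p of 0.999 without the block and 0.462 with it. The blocked 95% interval ran from -0.15 to 0.04.

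The 2 ONECUT genes were also set against each other within each library. There were 22.5, 37.2 and 45.6 Onecut2 reads per Onecut1 read in TNF 1, 2 and 3, against 16.4, 17.4 and 19.6 in Control 1, 2 and 3. Every TNF library had the higher number. Per kb of exon, Onecut1 made up 18.3 ± 5.62% of the summed ONECUT level in TNF and 29.3 ± 1.85% in Control (SD, n = 3 each). Onecut1 reads again cannot be told apart from those of Gm20649. Per kb of the whole counted span, introns included, mean Onecut1 was 0.127 CPM in TNF and 0.256 CPM in Control. Onecut2 was at 2.08 and 2.18 CPM on that scale, so the size of the shares depends on the length used. These shares were singled out after the values had been seen and were not tested.

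Prox1 was at 36.7, 41.4 and 30.5 CPM in TNF 1, 2 and 3, against 46.6, 51.8 and 40.4 CPM in Control 1, 2 and 3. TNF 2 lay above Control 3, so the groups overlapped, and replicate 2 was the highest and replicate 3 the lowest library in both. The means were 36.2 ± 5.47 CPM in TNF and 46.3 ± 5.71 CPM in Control, 21.8% lower (SD, n = 3 each). Pairs changed by -0.34, -0.32 and -0.40 (SD 0.04). In limma the log2 change was -0.35, with an adjusted p of 0.510 without the block, and Prox1 fell with the block (adjusted p 0.000179). The antisense genes Gm28172 and Prox1os overlap 964 and 385 bases of its counted span (chromosome 1, minus strand, 190121777 to 190170680). They have no row in the table, and the strand setting of the counting is not given, so their reads may be included.

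Prox1 is also a marker of lymphatic endothelium, and endothelial RNA was present. The 11 endothelial markers in the table summed to 103, 113 and 179 CPM in TNF 1, 2 and 3, against 110, 117 and 192 CPM in Control 1, 2 and 3. The sum was highest in replicate 3 of both groups. Of 9 tested endothelial markers 1 (Stab2) was lower with the block and none higher, against 11.2% and 9.4% of all tested genes. Lyve1 (log2 0.03) and Flt4 (log2 0.02) did not pass the test, and Pdpn had 11 reads over all libraries. The ONECUT and FOXA genes are also active in bile duct cells, whose 9 markers summed to between 42.4 and 64.5 CPM in TNF and between 38.0 and 47.1 CPM in Control. Of the 4 tested, Sox9, which made up most of that sum, rose with the block (35.0 CPM in TNF and 22.7 CPM in Control), and Pkhd1 fell (9.88 CPM in TNF and 12.5 CPM in Control). The bile duct keratin Krt19 had 23 reads and Krt7 1 read over the 6 libraries. The 7 stellate markers in the table summed to between 19.8 and 45.3 CPM in TNF and between 18.3 and 67.6 CPM in Control. The lowest sum of each group was in replicate 1. Of the 4 tested stellate markers 1 (Reln) was lower with the block, where 11.2% of all tested genes were. The part of these cells in the changes was not tested. In bulk RNA, fewer cells of a type and less RNA per cell cannot be told apart.

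The authors' deposited table also listed Hnf4a, Foxa2, Foxa3, Onecut1 and Prox1 at an adjusted p under 0.05 and lower, 5 of 7, against 8.32% of all its genes listed as lower and 6.85% as higher. Its log2 fold changes were -0.43 for Hnf4a, -0.27 for Foxa2, -0.21 for Foxa3, -1.01 for Onecut1 and -0.36 for Prox1. In the same table Foxa1 (0.01) and Onecut2 (-0.06) had adjusted p of 1 and 0.679. The sources used here do not name the model behind these values.

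Levels of different genes were compared per kb of exon inside the counted span. Hnf4a was highest, at 92.5 ± 7.99 CPM per kb in TNF and 125 ± 12.0 CPM per kb in Control (SD, n = 3 each). Foxa2 (17.3 ± 2.32 in TNF, 20.9 ± 2.61 in Control) and Foxa3 (15.2 ± 1.68 and 17.5 ± 1.92) came next, and their ranges overlapped in both groups. Foxa1 (10.4 ± 1.34 in TNF, 10.3 ± 1.01 in Control), Onecut2 (9.02 ± 2.44 and 9.45 ± 3.07) and Prox1 (7.84 ± 1.19 and 10.0 ± 1.24) followed, and the ranges of these 3 overlapped in Control. In TNF the ranges of Foxa1 (9.04 to 11.7) and Prox1 (6.60 to 8.97) did not overlap. Onecut1 was lowest, at 1.93 ± 0.29 in TNF and 3.90 ± 1.26 in Control. The summed FOXA level was 42.9 ± 3.61 CPM per kb in TNF and 48.8 ± 3.82 in Control, of which Foxa2 gave 40.3 ± 2.25% in TNF and 42.8 ± 2.84% in Control. Reads were counted over introns too, so these values are only an approximate order. Per kb of the whole counted span Hnf4a and Foxa2 also led, but closer together, with Hnf4a at 15.3 to 17.9 CPM per kb in TNF and 20.02 to 24.2 in Control, and Foxa2 at 8.49 to 10.7 in TNF and 10.2 to 12.7 in Control. On that scale Foxa1 stood above Foxa3, and Foxa1 (5.57 to 6.66 in Control), Onecut2 (1.47 to 2.88) and Prox1 (0.83 to 1.06) did not overlap.

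**Figure D3:**
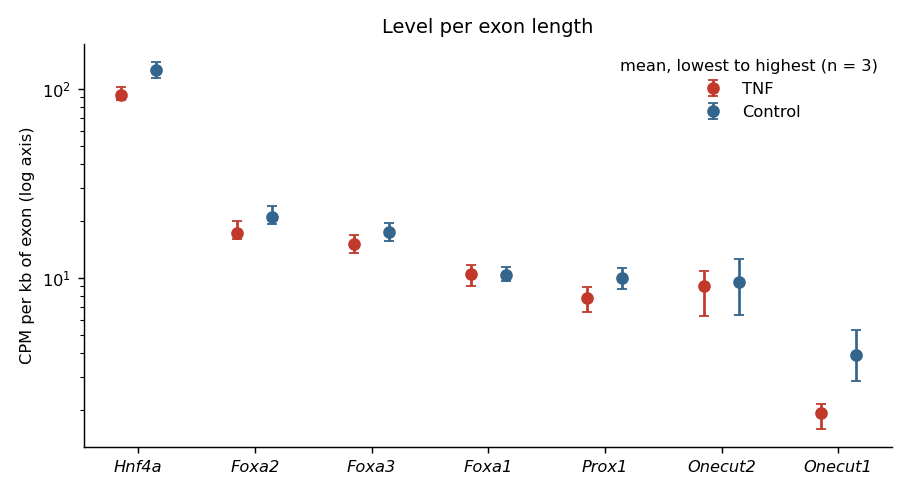
Level of each gene in CPM per kb of exon (vertical log axis) in TNF (red, left) and Control (blue, right), as the mean of 3 libraries with a bar from the lowest to the highest. On this scale Hnf4a lies at 92.5 in TNF and 125 in Control, above the others, and Onecut1 is lowest.

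The ratio of each gene to Hnf4a within a library depends little on how libraries are scaled to each other. Only 2.23% of all tested genes had a lower log2 change than Hnf4a, so for most genes the mean ratio was higher with TNF. The log2 change of Hnf4a itself was -0.43 and that of Foxa1 was 0.01. The share of all genes without overlap in this ratio was not computed. The log2 ratio of Foxa1 to Hnf4a was -3.58, -3.76 and -3.52 in TNF 1, 2 and 3, against -4.05, -4.15 and -3.99 in Control 1, 2 and 3. It was higher in every TNF library than in any Control library, by 0.44 on average. The ratio of Foxa2 to Hnf4a was also higher without overlap, by 0.17, at -3.37, -3.49 and -3.45 in TNF 1, 2 and 3, against -3.55, -3.71 and -3.56 in Control 1, 2 and 3. For Foxa3 the difference was 0.23, for Onecut2 0.38 and for Prox1 0.08, and for Onecut1 it was -0.38. In these 4 the groups overlapped. Leaving out 1 library gave differences of 0.13 to 0.31 for Foxa3, 0.05 to 0.69 for Onecut2, -0.63 to -0.16 for Onecut1 and -0.04 to 0.17 for Prox1. Within pairs the ratio was higher with TNF in 3 of 3 for Foxa1, Foxa2, Foxa3 and Onecut2, in 2 of 3 for Prox1 and in 1 of 3 for Onecut1. The exact two-sided permutation test gave p = 0.1 for Foxa1 and for Foxa2, the smallest possible with 3 against 3, and 0.3 for each when adjusted over the 6 ratios. No ratio could reach 0.05 in this design.

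**Figure D4:**
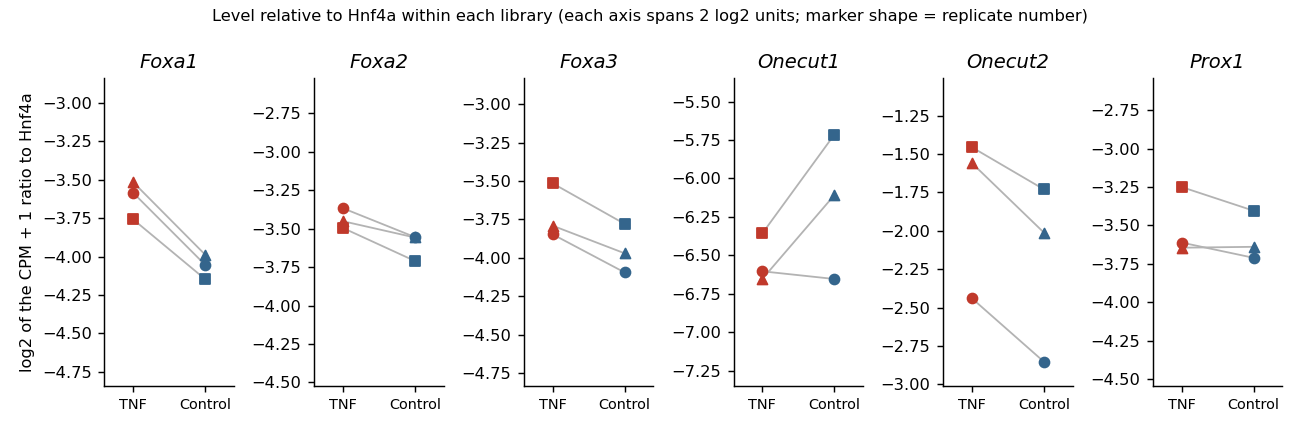
Level relative to Hnf4a within each library, as the log2 ratio of CPM + 1 (vertical axes, each spanning 2 log2 units around its own mean), for TNF (left, red) and Control (right, blue). Marker shape is the replicate number, and lines join the same number. The Foxa1 lines all run downward from TNF to Control by 0.39 to 0.47, and the Onecut1 lines do not share a direction.

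Across the 6 libraries the tested genes outside the 7 with a profile most like that of Hnf4a were, among those at 10 CPM or more, Lrp1, Siae, Ece1, Gstt2 and Tomm40l. Likeness was measured as the root mean square difference of log2(CPM + 1) profiles, each centred on its mean, which was 0.036 for Lrp1, a lipoprotein receptor, and 0.064 for Tomm40l. Lrp1 was at 305, 271 and 265 CPM in TNF 1, 2 and 3, against 393, 379 and 340 CPM in Control 1, 2 and 3. Picked by this likeness, Lrp1 had, like Hnf4a, every TNF library below every Control library and its highest level in replicate 1. Of the other members Foxa2 was nearest to Hnf4a (0.106), followed by Prox1 (0.162) and Foxa3 (0.179). Foxa1 (0.237), Onecut1 (0.344) and Onecut2 (0.497) were farther. All profiles share the same libraries, so these values are descriptions only.

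Of 28 tested genes on a list of 30 other liver transcription factors, 12 fell with the block, 1 rose and 15 did not pass the test. This list and those of targets below were chosen with earlier results of these data known. Their shares beside those of all tested genes may therefore reflect that choice. The median change was -0.15, against -0.01 over all tested genes, and the blocked fit called 11.2% of all genes lower. Without the block limma called none of the 28. Before adjustment 9 were lower and 0 higher with p below 0.05, where 4.31% of all tested genes were lower. Without the block limma-voom found 0 lower. Nr1i3 and Nr1i2, which encode the xenobiotic sensors CAR and PXR, fell by 1.33 and 0.51 (limma adjusted p without the block 0.169 and 0.0509). The bile acid receptor gene Nr1h4 (FXR) fell by 0.53 and Klf15, a fasting-related factor, by 0.61 (limma adjusted p without the block 0.242 and 0.233). Nr1i2 was at 37.0, 41.1 and 37.3 CPM in TNF 1, 2 and 3, against 54.2, 58.1 and 53.4 CPM in Control 1, 2 and 3, without overlap. The factor that rose was Nr5a2, a bile acid and cholesterol regulator, at 44.2 ± 6.86 CPM in TNF and 35.6 ± 6.00 CPM in Control (SD, n = 3 each, limma adjusted p without the block 0.698). Hnf4g, the paralog of Hnf4a, averaged 0.41 CPM in TNF and 0.62 CPM in Control. Nr5a2 and Hnf4g were named after their values were seen.

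Of 32 tested genes on a list of HNF4A targets 20 fell with the block, 1 rose and 11 did not pass the test, against 11.2% of all tested genes called lower and 9.4% higher. The median change was -0.18, against -0.01 over all tested genes. Before adjustment and without the block, 9 were lower and 1 higher with p below 0.05, where 4.31% of all tested genes were lower. Without the block limma called 1, where 0.0732% of all tested genes were called lower. This was Cyp8b1, whose enzyme steers bile acid synthesis to cholic acid. It was at 7.13, 6.22 and 9.86 CPM in TNF 1, 2 and 3, against 23.4, 21.1 and 20.7 CPM in Control 1, 2 and 3. The TNF libraries were all far below the Control libraries (log2 -1.40, adjusted p 0.0229). G6pc, the glucose-6-phosphatase of gluconeogenesis, fell by 1.01 with the block, and Baat, which conjugates bile acids, fell by 0.77 (limma adjusted p without the block 0.141 and 0.814). The clotting factor gene F7 and the lipid transfer gene Mttp fell by 0.33 and 0.29 (limma adjusted p without the block 0.211 and 0.184), whereas Apob, which carries VLDL, was at 4095 ± 406 CPM in TNF and 4402 ± 486 CPM in Control (log2 -0.10, adjusted p 0.118 with the block). Pklr, the liver pyruvate kinase of glycolysis, was the member that rose (141 ± 8.47 CPM in TNF and 99.6 ± 8.57 CPM in Control, SD, n = 3 each, limma adjusted p without the block 0.0721). F7, Mttp, Apob and Pklr were named after their values were seen.

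Of 14 tested genes on a list of FOXA and ONECUT targets 7 fell with the block, 0 rose and 7 did not pass the test, where 11.2% of all tested genes were called lower. The median change was -0.18, and that of all tested genes was -0.01. None was called by limma without the block. Before adjustment 6 were lower and 0 higher with p below 0.05, where 4.31% of all tested genes were lower. Without the block limma-voom found 0 lower. Cps1, the entry enzyme of the urea cycle, fell by 1.43, and Igfbp1, an insulin-like growth factor binding protein, by 1.30 (limma adjusted p without the block 0.204 and 0.148). Tdo2, which starts tryptophan breakdown, fell by 0.76 (0.460 without the block). Alb (log2 -0.06) and the fetal gene Afp (log2 -0.03) did not pass the blocked test (adjusted p 0.678 and 0.877). Alb and Afp were named after their values were seen. G6pc, Ttr, Pck1 and Apob stand on this list and on that of HNF4A targets, and Nr1i2 and Nr1i3 are among those that stand on that of HNF4A targets and on that of other factors, so the 3 lists are not independent.

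**Figure D5:**
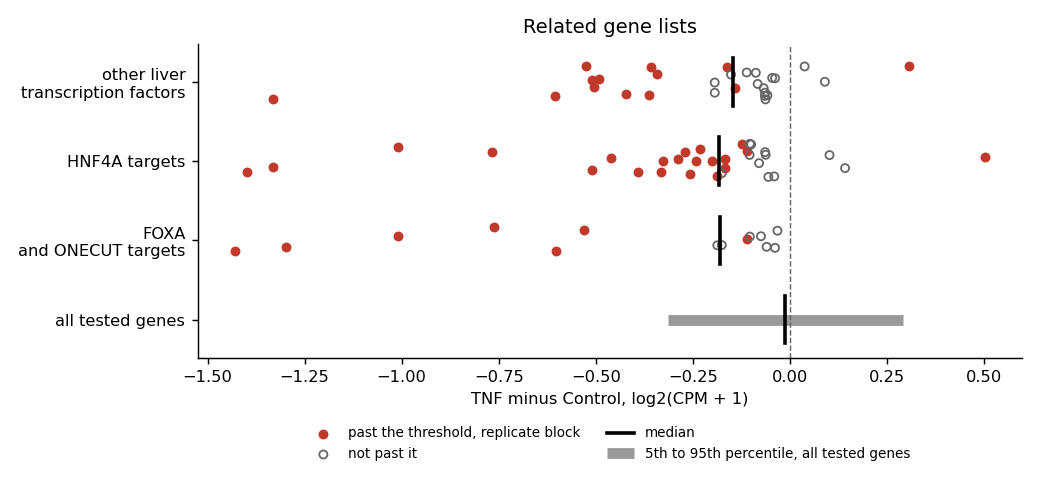
Change of each tested gene of 3 lists as TNF minus Control on the log2(CPM + 1) scale (horizontal axis). Filled points passed an adjusted p of 0.05 in limma with the replicate block, open points did not, and black strokes are medians. The list medians lie between -0.18 and -0.15, and the grey bar gives the 5th to 95th percentile of all tested genes, -0.31 to 0.29.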

How the data were processed

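Reads were aligned with STAR 2.6.1a to mm10, per the submitters' processing notes. The sources used here name neither the counting program nor its annotation or strand setting. Per the file headers and values, the authors deposited log2 CPM per library, raised by a prior count. For the comparison itself the authors deposited 1 log2 fold change per gene, with a likelihood ratio (a score), its p-value and the adjusted one. The counted length equalled the gene span in 85.0% of genes, which means that intronic reads were included.

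All library columns shared a floor of -3.35. With the floor subtracted on the linear scale, whole reads were recovered for 100.0% of 118584 values (tolerance 1e-06 reads). A gene with 3 reads was at 0.124 to 0.166 CPM. The authors' scaling was kept. Because the unit was log2, the quasi-likelihood count test named for raw counts was not used. limma 3.58.1 in R 4.3.3 was run on log2(CPM + 1), with its prior variance following the mean level. Tests were two-sided, with Benjamini-Hochberg adjustment over 12293 genes. These had the equivalent of 10 reads in a library of median size in at least 3 libraries, and 15 or more reads overall. The code was checked on simulated counts.

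As a check of pairing, each library's deviation from its group mean was compared across genes. The correlation was 0.78, 0.79 and 0.79 between libraries of the same replicate number, so the numbers, taken from the titles, were treated as pairs. Between others it was -0.47 to -0.34. With each group centred on its own mean, these had to be negative on average, so they are no separate evidence. The labels name no shared animal or day. SEs of the blocked fit draw on a variance shared between genes. No library pair was a duplicate (chi-square per degree of freedom 14.9 to 70.8).

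Exon lengths came from GENCODE M21 and promoters from RefSeq. The 7 genes and all lists were chosen with earlier results of these data known. From each list the text names up to 4 genes past the threshold with the largest change (without the block, then with it), and for Hnf4a the 5 genes with the most similar profile. Some genes of the lists are not reported here by name. Alternatives were other scalings, pseudocounts and filters, limma-voom, the deposited log2 values, the block, and leaving out libraries or pairs.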

Additional observations from a re-analysis of the deposited data

How the results depend on the processing

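With the replicate block 1156 genes were called higher and 1374 lower, against 44 and 9 without it. Of the 7 genes 5 were called lower with the block and 0 without it, and Hnf4a (log2 -0.43) passed the threshold. Called list members became 12 lower and 1 higher for other liver factors, 20 lower and 1 higher for HNF4A targets and 7 lower for FOXA and ONECUT targets. Without a filter the unblocked fit called 28 higher and 3 lower, and the blocked fit 911 lower, with more genes tested. Leaving out 1 library, with fewer samples, gave 8 to 25 higher and 0 to 5 lower without the block. The count of 0 lower came without Control 2 and without Control 3. With all libraries and without the block limma-voom called 7 lower, and in limma before adjustment 530 were lower with p below 0.05. With the block limma-voom called 1364 lower and 1156 higher. In the blocked fit, leaving out a pair gave 1 to 2 higher HNF4A targets.

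Hnf4a, Foxa2, Onecut1 and Prox1 stayed lower and past the threshold in all 9 blocked alternatives, and Foxa3 in 7. In the 14 unblocked alternatives none of the 7 genes passed. Signs turned for 2 genes that were called in no setting. Foxa1 ranged from -0.077 to 0.105 when 1 library was left out and from -0.026 to 0.056 when a pair was left out with the block. Onecut2 ranged from -0.309 to 0.187 and from -0.111 to 0.018. The Prox1 to Hnf4a ratio difference ranged from -0.043 to 0.173 when 1 library was left out. Why these values moved was not tested. Onecut1 is limited by depth, with 59 to 233 reads per library.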
